A study of Mus musculus with 14 samples.

Results

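The 9 genes described here are Cx3cr1, P2ry12, Tmem119, Csf1r, C1qa, C1qb, C1qc, Trem2 and Tyrobp, a set of microglial and complement genes taken by name from a table of 56748 genes. They were compared between the brains of 8 pups homozygous for a small deletion in the first intron of 2310061I04Rik (Rik-null) and 6 wild-type littermates (WT), all of strain C57BL6/J and at postnatal day 14. The deletion arose in an embryonic stem cell clone made for floxed Traf7 mice and was bred apart from the floxed Traf7 allele, so every Rik-null pup carries the mutation of a single clone. RNA came from one side of each brain, cut along the midline, with 1 library per pup. By label, 7 Rik-null pups were male and 1 was female, against 2 and 4 among WT. The question for these genes is whether the resident immune cells of the brain and their complement initiator differ in RNA level between the genotypes at this age.

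Microglia are the macrophages of the brain parenchyma. They depend on signalling through the Csf1r receptor, survey their surroundings with P2ry12 and Cx3cr1, and in the developing brain they remove synapses and dying cells. C1q, the molecule that starts the classical complement cascade, is built from the chains encoded by C1qa, C1qb and C1qc, is made mainly by microglia in the brain, and tags synapses for removal. Trem2 binds lipids and apolipoproteins at the microglial surface and signals through its adaptor Tyrobp.

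Promoter sequences were held by the RefSeq promoter table (GRCm38.p6) for 5 of the 9 genes. They are shown because several of the genes varied together across libraries, as described further on. PU.1, encoded by Spi1, is the ETS family factor of macrophages and microglia, and ETS factors bind a core of GGAA. The motifs GGAAGT and GAGGAA, each searched on both strands in the 250 bases before the RefSeq start, were chosen after the letters of these promoters had been seen, so the matches are a description only. Capitals mark a match to either motif, read on the strand of the gene, and neighbouring matches can overlap.
P2ry12: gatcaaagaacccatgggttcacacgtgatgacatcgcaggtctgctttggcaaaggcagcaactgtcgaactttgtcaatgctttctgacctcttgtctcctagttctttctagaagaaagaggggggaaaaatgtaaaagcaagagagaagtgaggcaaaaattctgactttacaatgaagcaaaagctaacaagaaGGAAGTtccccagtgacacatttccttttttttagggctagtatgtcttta
C1qb: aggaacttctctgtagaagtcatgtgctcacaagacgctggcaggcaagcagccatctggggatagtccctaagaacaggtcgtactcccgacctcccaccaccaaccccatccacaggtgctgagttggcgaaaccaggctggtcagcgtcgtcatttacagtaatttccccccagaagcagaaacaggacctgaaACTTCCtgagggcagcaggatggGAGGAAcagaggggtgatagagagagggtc
C1qc: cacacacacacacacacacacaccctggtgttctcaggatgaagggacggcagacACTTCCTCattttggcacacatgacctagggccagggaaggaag
Cx3cr1: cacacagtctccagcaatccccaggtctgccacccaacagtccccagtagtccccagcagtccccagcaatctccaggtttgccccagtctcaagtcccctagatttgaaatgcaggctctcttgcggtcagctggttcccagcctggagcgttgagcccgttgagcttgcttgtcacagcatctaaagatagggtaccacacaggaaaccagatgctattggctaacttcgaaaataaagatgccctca
Trem2: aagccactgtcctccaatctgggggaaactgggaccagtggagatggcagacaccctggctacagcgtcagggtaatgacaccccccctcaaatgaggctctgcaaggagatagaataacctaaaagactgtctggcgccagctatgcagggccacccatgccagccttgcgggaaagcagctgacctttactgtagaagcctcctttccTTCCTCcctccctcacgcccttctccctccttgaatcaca
These runs lie at chr3:59262986-59263235 (minus strand), chr4:136886201-136886450 (minus), chr4:136893066-136893164 (minus), chr9:120068297-120068546 (minus) and chr17:48346151-48346400 (plus). The C1qc run was limited to the 99 bases before the first transcript start of GENCODE M21, which lies upstream of the RefSeq start. C1qb and C1qc held a match to both motifs, P2ry12 held GGAAGT alone, Trem2 held GAGGAA alone, and the Cx3cr1 window held neither. Of 32851 promoter windows of the same length, 19.7% held GGAAGT, 23.3% held GAGGAA and 6.26% held both.

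Levels between genes were compared in FPKM, the deposited value per length of gene and depth of library. In WT brains the C1q chains led the set, with C1qa at 26.6 ± 3.31 FPKM (SD, n = 6), C1qb at 24.6 ± 2.43 and C1qc at 13.7 ± 1.37. Csf1r, the receptor for Csf1 and Il34 that keeps microglia alive, followed at 11.2 ± 1.06 FPKM. Tyrobp, the signalling adaptor, was at 9.90 ± 1.69, P2ry12, a purinergic receptor that senses ADP, at 9.41 ± 1.13, and Tmem119, a membrane protein used to tell microglia from other macrophages, at 7.61 ± 0.798 FPKM. Cx3cr1, the receptor for the neuronal chemokine Cx3cl1, was at 5.74 ± 0.434 FPKM and Trem2 was lowest of the set at 1.69 ± 0.253. Over the 14 libraries the ranges of neighbours in this order overlapped, except between C1qb and C1qc and between Cx3cr1 and Trem2. Tyrobp exceeded P2ry12 in 8 of 14 libraries, so the order of that pair was not resolved.

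Of the 9 genes, 0 were called different between genotypes at an edgeR adjusted p of 0.05, with 2 (P2ry12 and C1qc) at an unadjusted p below it. DESeq2 also called 0, with 3 at an unadjusted p below it. Over all 18170 genes tested, 1.12% were called higher and 2.2% lower in Rik-null brains. By edgeR p, C1qc ranked 1279 and P2ry12 3153 of these genes, and Cx3cr1, at an unadjusted p of 0.0513, ranked 3426. An unadjusted p below 0.05 was thus common over all genes. The fitted log2 fold change was above 0 for 9 of 9 members, against 50.5% of all tested genes, and their median was 0.10, against 0.00 over all genes. These 9 values are not independent, since most of the genes rose and fell together from library to library within a genotype. In bulk tissue, a difference in the number of microglia and a difference in RNA per microglial cell cannot be told apart.

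The receptors and surface proteins are given first, in CPM, the counts scaled to library size with TMM factors. Cx3cr1 ran from 23.6 to 28.6 CPM in WT libraries with a median of 26.4, and from 22.3 to 35.8 in Rik-null libraries with a median of 28.8. Of the 8 Rik-null libraries, 5 lay above the highest WT library and 1, Rik-null 1, lay below the lowest, so the groups overlapped at both ends. The log2 fold change of Cx3cr1 was 0.18 ± 0.084 (SE, edgeR adjusted p = 0.272). P2ry12 ran from 21.5 to 29.4 CPM (median 23.8) in WT and from 20.1 to 31.3 (median 28.1) in Rik-null libraries. For P2ry12, 7 of 8 Rik-null libraries were above the WT median, and Rik-null 1 was again below every WT library. Its log2 fold change was 0.20 ± 0.091 (edgeR adjusted p = 0.252, unadjusted p = 0.0438), and the exact permutation test gave p = 0.0922 (2-sided).

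Tmem119 and Csf1r were closer to no difference. Tmem119 ran from 15.05 to 20.4 CPM (median 18.1) in WT and from 15.04 to 19.9 (median 18.8) in Rik-null libraries, almost the same range, with a log2 fold change of 0.05 ± 0.073 (edgeR adjusted p = 0.760). Csf1r, the member with the most counts, ran from 54.9 to 72.8 CPM (median 65.2) in WT and from 60.2 to 80.3 (median 70.2) in Rik-null libraries. A single Rik-null library, Rik-null 6, exceeded every WT library for Csf1r, and the log2 fold change was 0.08 ± 0.067 (edgeR adjusted p = 0.580). Reads of 3 of these genes may be shared with neighbours, and the counting of strand is not given in the sources used here. By the deposited positions, P2ry12 lies wholly opposite Med12l, and Csf1r overlaps Hmgxb3 by 873 bases on the other strand. The span given for Cx3cr1 covers parts of Wdr48 and Ttc21a on the other strand. It also covers parts of Gorasp1 and Csrnp1 on the same strand, which counting by strand would not separate. The values of these 3 genes carry that uncertainty.

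**Figure D1:**
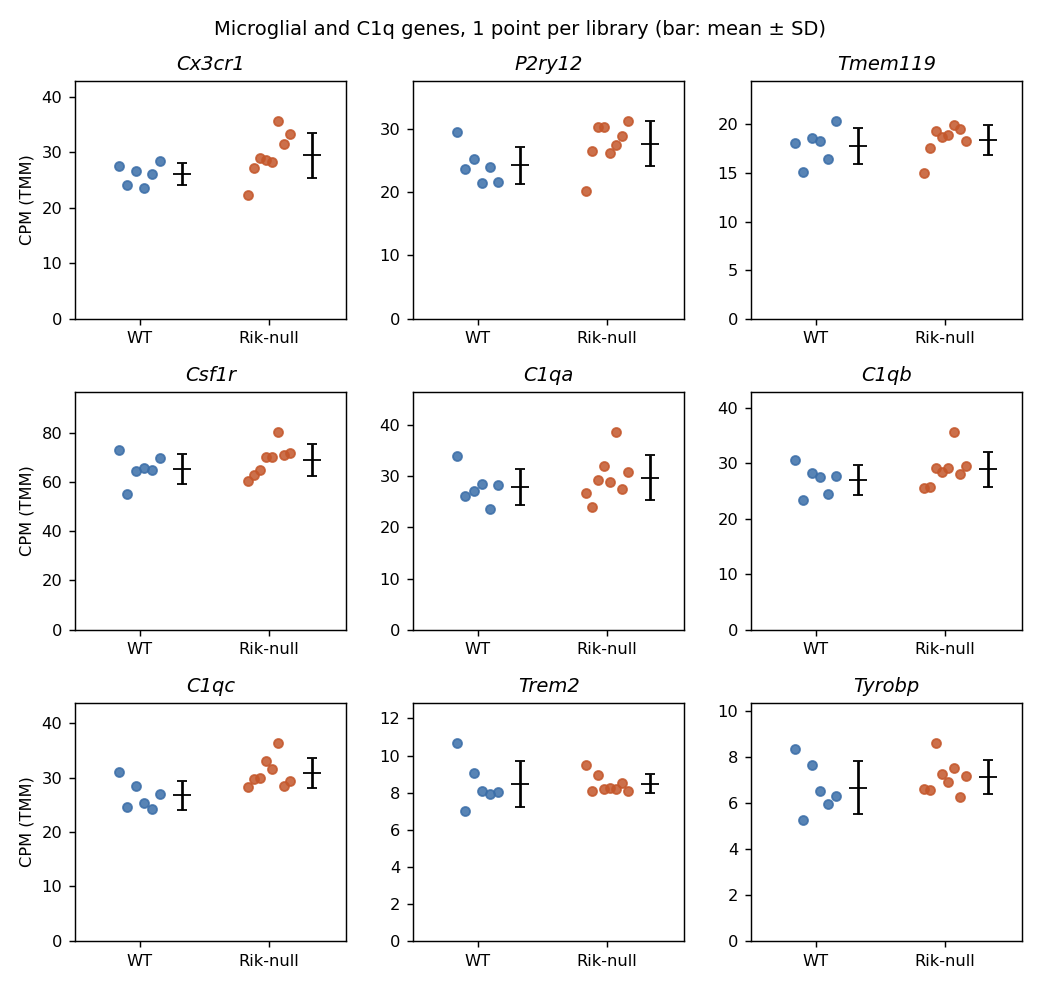
CPM (counts scaled to library size with TMM factors, axis from 0) of each gene in the 6 WT libraries (blue) and 8 Rik-null libraries (orange), 1 point per library, with the mean and SD as a bar. In each panel the genotypes overlap; for C1qc all 8 Rik-null points, from 28.3 to 36.4, lie above the WT median of 26.1, as all 8 do for Trem2, whose means are nearly equal.

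Among the C1q chains, C1qc had the largest fitted difference of the 9 genes. It ran from 24.2 to 31.1 CPM (median 26.1) in WT and from 28.3 to 36.4 (median 29.8) in Rik-null libraries. All 8 Rik-null libraries were above the WT median and 4 of 6 WT libraries were below every Rik-null library, while WT 1 and WT 3 reached into the Rik-null range. The log2 fold change of C1qc was 0.21 ± 0.069, or 15.5% (edgeR adjusted p = 0.105, unadjusted p = 0.00739), and the exact permutation test gave p = 0.0120 (2-sided, smallest possible 0.000333). C1qc was the member closest to the threshold, and the 2-sided p of the exact test is not adjusted for the 9 genes read side by side.

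The other chains, encoded beside C1qc on chromosome 4, differed less. C1qa ran from 23.6 to 34.0 CPM (median 27.7) in WT and from 24.0 to 38.7 (median 29.0) in Rik-null libraries, with a log2 fold change of 0.09 ± 0.093 (edgeR adjusted p = 0.634). C1qb ran from 23.4 to 30.7 CPM (median 27.6) in WT and from 25.6 to 35.7 (median 28.7) in Rik-null libraries, with a log2 fold change of 0.10 ± 0.075 (edgeR adjusted p = 0.499). For both chains a single Rik-null library, Rik-null 6, exceeded the highest WT library. As shares of the summed C1q FPKM, C1qa made up 40.9 ± 1.48% in WT and 40.1 ± 1.53% in Rik-null brains and C1qb 37.9 ± 1.18% and 37.4 ± 1.03%. The share of C1qc was 21.2 ± 0.758% in WT (19.9 to 22.1) and 22.5 ± 1.18% in Rik-null brains (21.2 to 24.7), with overlapping ranges.

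**Figure D2:**
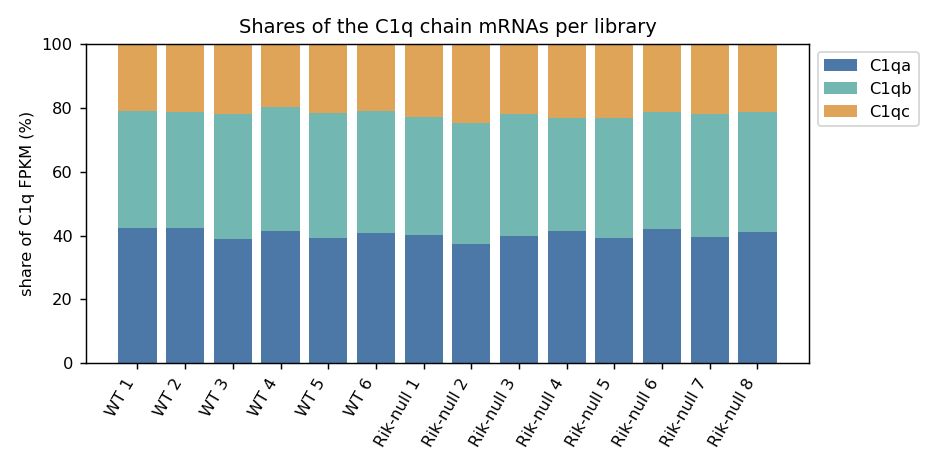
Share of C1qa, C1qb and C1qc in the summed FPKM of the C1q chains (percent, stacked to 100) in each WT and Rik-null library. C1qc holds between 19.9% and 24.7% in every library.

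Trem2 and Tyrobp showed the smallest counts of the set, 122 to 248 and 111 to 203 per library. Trem2 ran from 7.02 to 10.7 CPM (median 8.05) in WT and from 8.06 to 9.49 (median 8.23) in Rik-null libraries. The Rik-null range lay inside the WT range. As for C1qc, all 8 Rik-null libraries were above the WT median, with 3 of 6 WT libraries below every Rik-null library, although the log2 fold change was 0.01 ± 0.085 (edgeR adjusted p = 0.978). Trem2 lies on chromosome 17, as does 2310061I04Rik, 12.4 Mb away in the positions of the table. Tyrobp ran from 5.24 to 8.34 CPM (median 6.41) in WT and from 6.25 to 8.61 (median 7.04) in Rik-null libraries, with a log2 fold change of 0.10 ± 0.10 (edgeR adjusted p = 0.633). The ratio of Trem2 to Tyrobp in FPKM was 0.172 ± 0.00775 in WT and 0.162 ± 0.0185 in Rik-null brains, with the WT range of 0.160 to 0.181 inside the Rik-null range of 0.140 to 0.193.

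**Figure D3:**
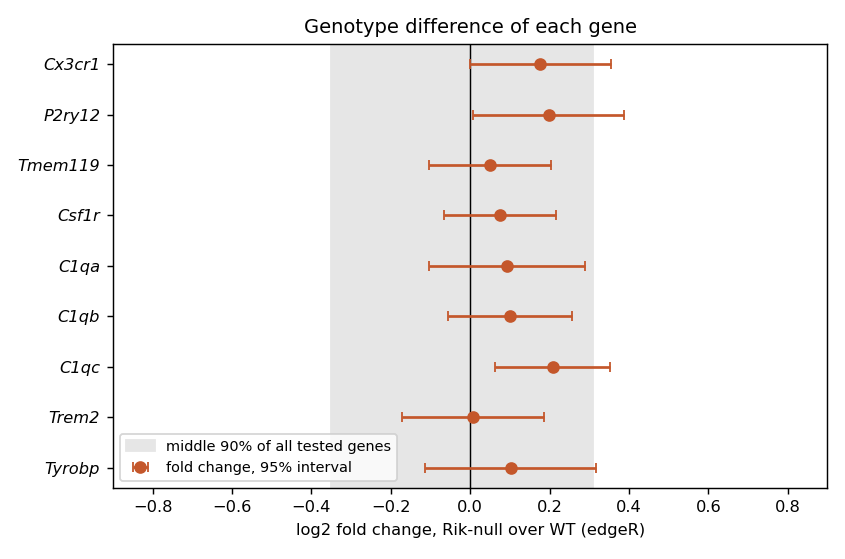
Log2 fold change of each gene, Rik-null over WT, as fitted by edgeR (points) with its 95% interval (bars) and the middle 90% of all 18170 tested genes as a grey band from -0.35 to 0.31. All 9 points lie at or to the right of 0 and inside the band, and the highest upper bound is 0.39 for P2ry12.

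The intervals bound the size of difference these libraries leave possible. The 95% intervals of the log2 fold change reached no higher than 0.39 (P2ry12) and no lower than -0.17 (Trem2), so a doubling or halving of any of the 9 transcripts, a log2 change of 1, lay outside them. The intervals of C1qc (0.06 to 0.35) and P2ry12 (0.01 to 0.39) did not include 0, and that of Cx3cr1 (-0.00113 to 0.354) reached it. An adjusted p above the threshold does not show that the genotypes were equal.

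For each gene, the range over the pups of a genotype was wider than the ratio of the genotype means. The highest library of a genotype exceeded the lowest by 1.18-fold (Trem2 in Rik-null) to 1.61-fold (C1qa in Rik-null), against ratios of genotype means of 1.00 to 1.15. In WT libraries the CV was 7.45% for Cx3cr1 to 17.0% for Tyrobp, while counting error alone would give 2.45% (Csf1r) to 7.75% (Tyrobp). In Rik-null libraries the CV exceeded counting error for 8 of 9 genes, the exception being Trem2 (5.96% against 7.56%). Rik-null 6 was the highest Rik-null library for 6 of 9 genes and Rik-null 1 the lowest for 6 of 9. WT 1 was the highest WT library for 7 of 9 genes and WT 2 the lowest for 5 of 9. Rik-null 6 was also the library with the fewest counts, 15183130, and the part of depth in its values was not tested.

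**Figure D4:**
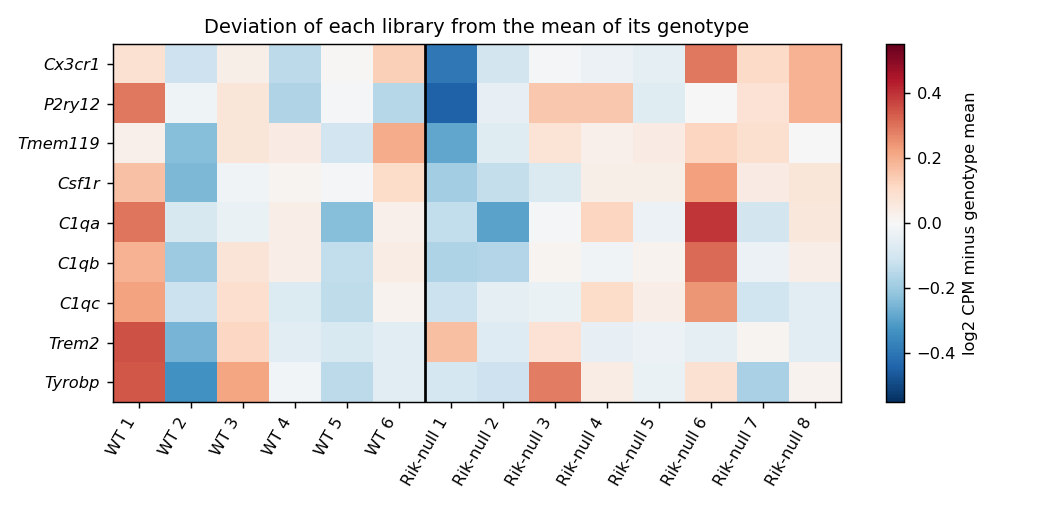
Difference of each library's log2 CPM from the mean of its genotype (colour, red above and blue below) for the 9 genes in rows and the 14 libraries in columns, WT to the left of the line. WT 1 and Rik-null 6 are red for most genes, WT 2 and Rik-null 1 blue, and the values run from -0.45 to 0.39.

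The genes moved together across pups. Over the 14 libraries, Pearson's r between the deviations of 2 members from their genotype means ran from -0.06 to 0.89 over 36 pairs, with a median of 0.53 and 35 pairs above 0. These r values compare genes read in the same libraries, whose depth differed. They carry no test, and the part of depth and dissection in them was not tested. The C1q chains were the tightest group, with r of 0.89 for C1qa and C1qb, 0.84 for C1qb and C1qc, and 0.83 for C1qa and C1qc. C1qb also followed Csf1r (0.88). Trem2 followed Tyrobp (0.74) but not Cx3cr1 (-0.06).

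The 10 other genes whose deviations were most like the members' mean were Bin2, 5930430L01Rik, Selplg, Nkpd1, Mcm8, Gpr34, Vav1, Cyth4, Il21r and Sox13, with r from 0.80 to 0.88 over 14 libraries. Selplg, the P-selectin ligand, and Gpr34, a lysophosphatidylserine receptor, belong to a wider list of 35 microglial genes, whose median r was 0.46 with 17 of 35 above 0.5. Of all tested genes, 2.31% had an r above 0.5. For 7 border macrophage genes the median r was 0.07 and none was above 0.5.

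Of the wider list of 35 resting microglial genes, 0 were called in either direction, 23 had a log2 fold change above 0 and 12 below, and the median was 0.03. Sall1, a transcription factor of microglial identity, was at 28.9 ± 2.35 CPM in WT and 28.1 ± 1.90 in Rik-null brains (log2 fold change -0.04 ± 0.060, edgeR adjusted p = 0.787), and Spi1 was at 4.40 ± 0.459 and 4.75 ± 0.705 CPM (0.12 ± 0.11, edgeR adjusted p = 0.602). Sall1 and Spi1 were named after their values were seen. Olfml3, one of the genes named for a small p, was at 13.7 ± 0.927 and 15.1 ± 1.30 CPM (0.14 ± 0.066, edgeR adjusted p = 0.281).

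The ligand list gave no call either, 0 of 8. It holds ligands of these receptors and also some of other receptors, such as Gas6. Cx3cl1, the neuronal ligand of Cx3cr1, was at 739 ± 55.9 CPM in WT and 729 ± 48.8 in Rik-null brains (log2 fold change -0.02 ± 0.055, edgeR adjusted p = 0.879). Csf1 was at 20.2 ± 3.24 and 21.0 ± 3.94 CPM (0.04 ± 0.11, edgeR adjusted p = 0.876). Il34, the neuronal ligand of Csf1r, was at 46.1 ± 1.84 and 41.8 ± 2.16 CPM, with 7 of 8 Rik-null libraries below every WT library (-0.14 ± 0.044, edgeR adjusted p = 0.0861). Apoe, a lipoprotein that binds Trem2, was at 1885 ± 116 and 2154 ± 166 CPM, with 5 of 8 Rik-null libraries above every WT library (0.19 ± 0.057, edgeR adjusted p = 0.0726). In the main fit, neither Il34 nor Apoe reached the threshold. Among the alternatives given further on, 1 ligand was called higher in 4 and 1 ligand lower in 1.

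Of 32 other complement genes, among them proteases, components, receptors and regulators of more than one pathway, 25 were tested, 0 were called higher and 1, Cfp, lower. Cfp, the properdin that stabilises the alternative pathway convertase and an X-linked gene, fell from 19.8 ± 2.49 CPM in WT (16.9 to 23.5) to 14.3 ± 3.04 in Rik-null brains (10.9 to 18.5), a log2 fold change of -0.47 ± 0.12 (edgeR adjusted p = 0.0428). The call was lost without Rik-null 2, 3, 4 or 5 or WT 1, 4, 5 or 6 (edgeR adjusted p of 0.0744 to 0.107) and with labelled sex as a term (0.162). The fold stayed near its value in these fits, at -0.41 to -0.48 with a library left out and -0.48 with the sex term. Xist and Ddx3y go against the labelled sex of WT 1 and WT 6. With the sex term but without both libraries, Cfp was -0.48 (edgeR adjusted p = 0.556). That fit called 0 genes higher and 8 lower over all genes tested. With library set as a block, Cfp was -0.41 (adjusted p = 0.000927) and in set B alone -0.56 (0.00177), while in set A alone it was -0.31 (0.190). C3, the central component cleaved after C1q acts, was at 1.17 ± 0.330 CPM in WT and 1.13 ± 0.300 in Rik-null brains (-0.03 ± 0.20, edgeR adjusted p = 0.952), and C4b at 13.8 ± 4.20 and 16.9 ± 5.91 CPM (0.27 ± 0.22, edgeR adjusted p = 0.530). C3 and C4b were also chosen after their values were seen. Among 9 neuronal genes with a C1q domain that do not act in complement, 0 were called, and C1ql3 had the smallest p (-0.12 ± 0.064, edgeR adjusted p = 0.331).

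In the signalling list downstream of Trem2 and Tyrobp, 0 of 11 tested genes were called. Pik3cg, a phosphoinositide 3-kinase subunit, had the smallest p, with a log2 fold change of 0.34 ± 0.13 (edgeR adjusted p = 0.156). Of 18 tested genes that are induced in disease-associated microglia, 1 was called. That gene, Axl, a receptor for Gas6 that is also expressed outside microglia, was higher in all 8 Rik-null libraries (52.6 to 57.6 CPM) than in all 6 WT libraries (47.2 to 51.2), with a log2 fold change of 0.19 ± 0.037 (edgeR adjusted p = 0.00816). Of all tested genes, 0.517% had every Rik-null library above every WT library and 1.23% had every one below. With labelled sex as a term, the Axl difference was 0.19 with an edgeR adjusted p of 0.0664. Xist and Ddx3y go against that label in WT 1 and WT 6, and with the sex term but without both libraries it was 0.18 (edgeR adjusted p = 0.410). That fit called 0 genes higher and 8 lower over all genes tested. Within the library sets A and B, defined with the facts of the libraries, the Axl difference was 0.19 (adjusted p = 0.189) and 0.22 (0.0346). With library set as a block it was 0.20 (edgeR adjusted p = 0.00187), and in libraries labelled male alone 0.24 (0.231). The Axl call was kept with each library left out (edgeR adjusted p of 0.00662 to 0.0241). Of 19 inflammatory genes, 9 were tested. The filter on low counts removed the others, among them Tnf, Il1a, Il1b, Il6, Ccl2 and Cxcl10, so the main test says nothing on these. Of the genes tested, 0 were called, 8 had a log2 fold change below 0 and 1 above, and the median was -0.09. The gene above 0, Tlr4, a receptor for bacterial lipopolysaccharide, had the smallest p (0.37 ± 0.16, edgeR adjusted p = 0.243), followed by Nos2 (-0.28 ± 0.16, edgeR adjusted p = 0.348). Of the lists above with 0 calls, genes at an unadjusted p below 0.05 in edgeR were 1 lower of 35 wider microglial genes, 1 higher and 2 lower of 8 ligands, 1 higher of 11 signalling genes, 1 higher of 9 inflammatory genes and 0 of 9 C1q-domain genes, and DESeq2 called 0 genes in each of these lists except 1 ligand. Such a p was common over all genes, where Ncf1, at 0.0488 in edgeR, ranked 3338 of 18170. The study read its own list of 20 microglial genes in brains of an older age, where it reported Selplg lower in Rik-null brains. Here, at postnatal day 14, that list gave 0 called of 12 tested, with 2 lower at an unadjusted p below 0.05. Its smallest p belonged to Pla2g15 (-0.14 ± 0.052, edgeR adjusted p = 0.149). Selplg was at 17.7 ± 1.69 CPM in WT and 17.5 ± 2.15 in Rik-null brains (-0.01 ± 0.082, edgeR adjusted p = 0.947). The list shares Tmem119, C1qa and Trem2 with the members, so it is not separate from them.

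**Figure D5:**
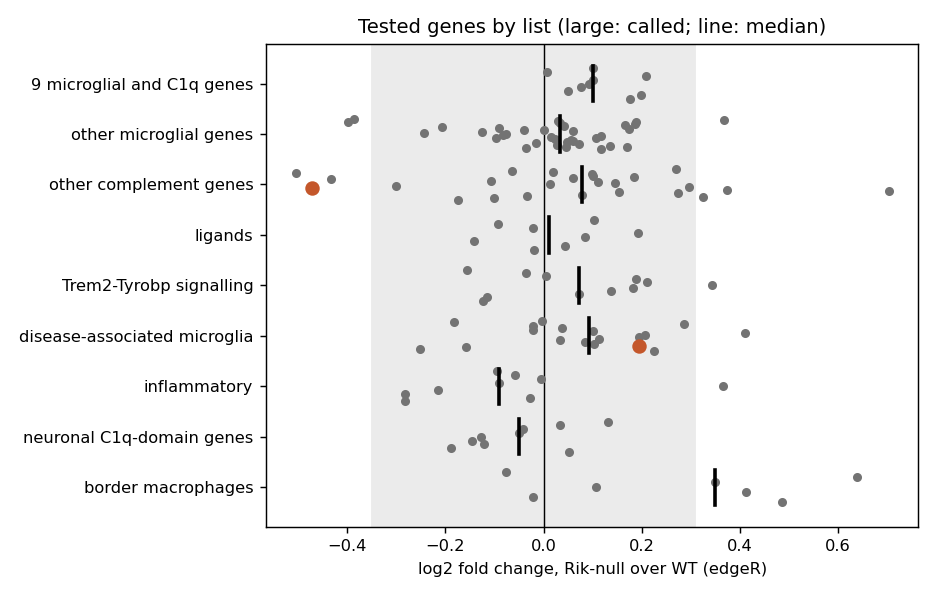
Log2 fold change (Rik-null over WT, edgeR) of each tested gene by list, with called genes as large orange points, the list median as a black line and the middle 90% of all tested genes in grey. Of the 9 lists drawn, Cfp (-0.47) and Axl (0.19) are the called genes, and the median of the 9 members is 0.10.

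Markers of other cells that the tissue can hold were read beside these values. Of the border macrophage list, 7 of 11 genes were tested, 0 were called (3 higher at an unadjusted p below 0.05) and the median log2 fold change was 0.35. The summed level of that list was 23.1 to 34.8 CPM in WT and 25.0 to 37.5 in Rik-null libraries, against 204 to 263 and 214 to 290 for the 9 genes, and its part in the members' values was not tested. Blood leukocyte markers summed to 1.91 to 2.73 CPM in WT and 1.31 to 2.15 in Rik-null libraries, near 0. Choroid plexus markers (3 of 7 called higher, among them Folr1 at 0.75 ± 0.13, adjusted p = 0.00399) and meningeal markers (2 of 7 called higher, Dcn and Slc22a6) moved with genotype, and endothelial markers summed to 157 to 186 CPM in WT and 123 to 146 in Rik-null libraries with 0 of 5 called (2 lower at an unadjusted p below 0.05). Of the neuronal, astrocyte, oligodendrocyte and red cell markers 0 of 5 each were called, and of the pituitary markers 0 of 2, with 3 astrocyte and 1 pituitary gene higher and 1 neuronal gene lower at an unadjusted p below 0.05. DESeq2 called 0 genes in these lists and in the border macrophage and endothelial lists. What part these differences in marker levels had in the members' values was not tested.

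Some facts of the libraries bear on the values. Counts per library were 15183130 to 28012811 in Rik-null and 18102343 to 30993890 in WT. 2310061I04Rik itself was at 7.44 to 10.6 CPM in Rik-null and 68.9 to 79.4 in WT libraries. WT 1, labelled male, held Xist at 436 CPM and no Ddx3y, and WT 6, labelled female, held Xist at 0.162 CPM and Ddx3y at 54.8, so both go against their labelled sex. Growth hormone reached 44.6 CPM in Rik-null 5 and 185 in Rik-null 8. The libraries also split into 2 sets on the second principal component, A (4 Rik-null, 4 WT) and B (4 Rik-null, 2 WT), whose origin is not given in the sources used here. Within set A, 0 of 9 genes were called and 7 had a fold change above 0, and within set B 0 of 9 were called and 9 were above 0. C1qc was 0.19 in set A (edgeR adjusted p = 0.440) and 0.24 in set B (0.106), and without WT 1 and WT 6 it was 0.27 (edgeR adjusted p = 0.111).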

How the data were processed

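Brain RNA was sequenced from 8 Rik-null and 6 WT pups, 1 library each, and genotypes were taken from the sample labels. The authors deposited whole-number counts, without normalization, and FPKM per gene. FPKM, per the file headers, scales the count by the gene length that the authors also deposited. The aligner, counting program, annotation and strandedness were not given in the sources used here, and the submitters' processing notes name the build mm10, but gene positions in the table are those of another build, so they were used only for neighbourhood. The table also holds the authors' genotype means, log2 fold changes and raw and adjusted p-values, which were not used. All per-sample columns were matched to a sample. Where a name had several identifiers (77 names), the one with most counts was taken.

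Counts were analysed in R 4.3.3 with edgeR 4.0.16 (filter on low counts by genotype, TMM, quasi-likelihood test, genotype as the term). P-values were adjusted by Benjamini-Hochberg over 18170 genes, and a gene was called at 0.05. Log2 CPM had a prior count of 2. The 2-sided exact permutation test used all 3003 arrangements. The edgeR fit was tested on simulated data. The smallest library had 15183130 counts, and counts of the 9 genes ran from 111 to 2158 per library. Alternatives used DESeq2 1.42.0, limma 3.58.1 on log2(FPKM + 1), other filters and scalings, sex, library set and replicate terms, thinning, and each library left out. The named genes are the 9 members, of each other list up to 4 called genes (or the 2 with the smallest p), the 10 most alike genes, and Cx3cl1, Csf1 and Il34. Some genes of the lists are not reported here by name. The members and lists were chosen with earlier results of these data known. Promoter sequences are from RefSeq (GRCm38.p6).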

Additional observations from a re-analysis of the deposited data

Results flagged for a closer look

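Values of the members and of the named genes, shares and summed lists were examined in each genotype for a library that stood far from the others, 60 groups of values in all, and chance flags about 1 in 20. There were 3. P2ry12 was 20.1 CPM in Rik-null 1, with the next lowest Rik-null library at 26.2. C1qb was 35.7 CPM in Rik-null 6, with the next highest at 29.6. The summed endothelial markers were 123 CPM in Rik-null 4, with the next lowest at 136.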

How the results depend on the processing

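Under the 30 alternatives run for the 9 members (16 choices of test, scaling, filter, covariate, subset or depth, and 14 that each left out a library), 0 were called in either direction. The smallest adjusted p was 0.0583, for C1qc with library set as a block, and for C1qc it ran from 0.0583 to 0.712. Of the directions, 12 of 270 values reversed, none below -0.0491. Tmem119 was -0.00848 in library set A alone and C1qa -0.00552 in libraries labelled male alone. Trem2 was -0.0315 with a labelled sex term, -0.0491 in libraries labelled male alone, -0.00781 in library set A alone and -0.0411 when thinned to the smallest library, and -0.0402 to 0.0821 when each library was left out, below 0 without Rik-null 1 or 3 or WT 2, 4, 5 or 6. With each library left out, values ran from 0.00642 (without WT 2) to 0.0952 (without WT 6) for Tmem119, 0.0307 (without WT 2) to 0.11 for Csf1r, 0.0352 (without Rik-null 6) to 0.157 (without WT 1) for C1qa, 0.0565 (without Rik-null 6) to 0.141 for C1qb and 0.0426 (without WT 2) to 0.174 (without WT 1) for Tyrobp, each a move of over 1.5 times where a library is named, with 0 of these called. Cx3cl1 was 0.0839 with a labelled sex term leaving out WT 1 and WT 6, 0.0374 omitting these 2 libraries, 0.00563 with library set as a block and 0.0438 in set B alone, and -0.0452 to 0.00672 when each library was left out (above 0 without WT 1 or WT 6). Csf1 was -0.0351 to 0.134 when each library was left out, below 0 without Rik-null 6.

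Replicate numbers of the labels did not pair the samples (r of deviations 0.20, 0.30, 0.32, -0.34, -0.11 and 0.22 for numbers 1 to 6). With the replicate block, 0 members were called, C1qc was 0.24 (adjusted p = 0.0899), and 1 ligand, 2 disease-associated genes and 1 astrocyte gene were called higher and 1 endothelial gene lower, against 0, 1, 0 and 0 without it.

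For the other lists, the settings on sex, library set, replicate, subsets and thinning were chosen after seeing the data. With DESeq2, 1 ligand was called higher, and without a filter 1 pituitary gene. With limma on FPKM, without WT 1 and WT 6, and when thinned, 0 complement genes were lower. With labelled sex as a term, 0 complement genes were lower, 0 disease-associated and 1 meningeal gene higher; dropping WT 1 and WT 6 as well gave 0 for complement, disease-associated, choroid plexus and meningeal genes, as did males alone and set A alone. Without WT 1 and WT 6, 1 choroid plexus gene was higher. With set as a block, the counts higher were 1 ligand, 3 complement, 3 disease-associated, 2 border macrophage, 1 pituitary, 2 astrocyte and 1 oligodendrocyte gene, and lower 1 ligand, 1 neuronal and 1 endothelial gene. In set B alone, 1 ligand, 2 erythroid, 5 meningeal, 1 astrocyte and 1 oligodendrocyte gene were higher and 1 neuronal and 2 endothelial genes lower. With each library left out, complement genes lower ran from 0 to 1 and higher from 0 to 1 (1 without Rik-null 5), and meningeal genes higher from 2 to 4 (4 without Rik-null 6). The cause of these differences was not tested. Genes as low as Trem2 and Tyrobp carry counting error of 6.86% to 8.23% per library, which limits what depth can show.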
